A study of Mus musculus with 9 samples.

Results

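The 10 genes followed here load, form or start the replicative DNA helicase: Cdc6 and Cdt1, Mcm2, Mcm3, Mcm4, Mcm5, Mcm6 and Mcm7, Mcm10, and Cdc45. They were chosen by name, with earlier results of these data known, so their counts beside those of all genes are a description. Every probe of the spleen arrays whose accession maps to 1 of these symbols was taken. These were 11 of 39429 probes, with 2 for Cdc6 and 1 for each other gene, and they represent 10 of the 26325 genes tested. All 11 probes were well above background on all 9 arrays, so that no member was lost to the filter on dim probes.

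The arrays came from female BALB/c mice in 3 groups of 3 samples, 1 array a sample. The name low Se non-GD stands for mice without Graves' disease on a low dietary selenium supply, low Se GD for mice with the disease on that supply, and normal Se GD for mice with the disease whose supply was normal. In Graves' disease, autoantibodies switch on the thyroid's receptor for thyrotropin, and the title names the role of selenium intake in it as the question. The sources used here do not give the way the disease was induced, the age of the mice or the make-up of the diets. Healthy mice on a normal supply were not among the groups, so the 2 levels of selenium could be set against each other in diseased mice only. Separate animals for the samples of 1 group are not stated in the labels, so a p-value reflects only how far these samples vary, and that variation may be technical.

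Before a cell copies its DNA, the origin recognition complex marks the start sites, and Cdc6 and Cdt1 help it to load the ring formed by Mcm2 to Mcm7. The ring stays idle until kinases act on it and Cdc45 and the GINS complex join it, with Mcm10 needed to set the helicase in motion. Transcription of these genes is a classical output of E2F factors at the entry into S phase, so their mRNAs mark cycling cells, which in a mouse spleen include erythroid precursors and activated lymphocytes. In whole spleen, fewer cells of a type and less RNA per cell cannot be told apart.

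The letters TTTCCCGC, TTTCGCGC, TTTGCCGC and TTTGGCGC, which E2F factors are known to bind, were searched on both strands of the RefSeq promoters of GRCm38.p6, each from 250 bases before to 50 after the start of the gene. Of the 10 genes, 9 matched the promoter table, Mcm4 did not, and Mcm7 has 2 promoters there. At least 1 of the 4 words stood in 6 of these 9 genes, Mcm3, Mcm5, Mcm6, Mcm7, Cdc6 and Cdt1, against 2.26% of all 32851 promoters. The matches are shown because most of these genes hold at least 1 of the words, though no single word stood in most of them. Each line gives 30 bases, 5′ to 3′ on the strand of the gene, with matches on either strand in capitals.
Mcm3, chr1:20820266-20820295, minus strand: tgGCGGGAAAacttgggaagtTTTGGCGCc
Mcm5, chr8:75109347-75109376, plus strand: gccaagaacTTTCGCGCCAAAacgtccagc
Mcm6, chr1:128359795-128359824, minus strand: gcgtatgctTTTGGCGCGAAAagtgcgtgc
Mcm6, chr1:128359734-128359763, minus strand: gattggacgggTTTGGCGCgaagtagctca
Mcm7, chr5:138172030-138172059, minus strand: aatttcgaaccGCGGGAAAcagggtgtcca
Mcm7, chr5:138171849-138171878, minus strand: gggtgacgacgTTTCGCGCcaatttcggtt
Cdc6, chr11:98908002-98908031, plus strand: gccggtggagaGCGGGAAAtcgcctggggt
Cdt1, chr8:122568035-122568064, plus strand: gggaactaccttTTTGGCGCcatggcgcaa
In Mcm5 and in the first Mcm6 stretch, matches on opposite strands overlap in 1 run of capitals. The letters CCAAT, which also occur in many other promoters, stood in 7 of the 9 genes and in 37.4% of all promoters. TTTGAA, the core of a promoter element of cell cycle genes, stood in 2 of the 9, Mcm2 and Cdc45, and in 17.9% of all promoters. A match of letters is a description of the sequence and shows no binding.

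Values below are log2 signals minus the 75th percentile of their array, so a difference of 1 is a doubling, and levels are compared between arrays for 1 probe at a time. From 58.4% to 82.6% of probes were well above background on an array, the lowest on normal Se GD replicate 3, and no spot was saturated. Some arrays lay between the others of their group for most genes. For 18541 genes well above background on all arrays, low Se non-GD replicate 3 lay between replicates 1 and 2 for 78.3%, and low Se GD replicate 2 between its 2 companions for 69.0%. In normal Se GD the largest such share was 55.0%, for replicate 1. Among the members these counts were 10 of 10, 9 of 10 and 4 of 10. The sources used here do not say whether such arrays share RNA with their neighbours, and results are also given without the first 2, called in-between arrays. The headers give 3 shared scan times: scan 1 held every array of low Se non-GD plus low Se GD replicate 1, scan 2 held replicates 2 and 3 of low Se GD with replicates 1 and 2 of normal Se GD, and scan 3 held normal Se GD replicate 3.

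Low Se GD had the highest group mean for every member but Cdc45. For most members, though, low Se non-GD replicate 1 lay above low Se GD replicate 1. Low Se GD replicate 3 was the highest of the 9 arrays for 9 of 10 genes and low Se non-GD replicate 2 the lowest for 7 of 10. Within low Se non-GD, replicate 1 was highest and replicate 2 lowest for all 10 genes. Within low Se GD, replicate 3 was highest and replicate 1 lowest for 9 of 10, Cdc45 being the exception, and within normal Se GD the lowest array differed between members. Over the 9 arrays, the 36 pairs among the 9 genes other than Cdc45 had Pearson correlations from 0.70 to 0.997, with a median of 0.90. The correlations of Cdc45, whose probe was the dimmest of all member probes, with these 9 ran from -0.25 to 0.11. The pairs share arrays, scaling and groups, and are given as a description.

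**Figure D1:**
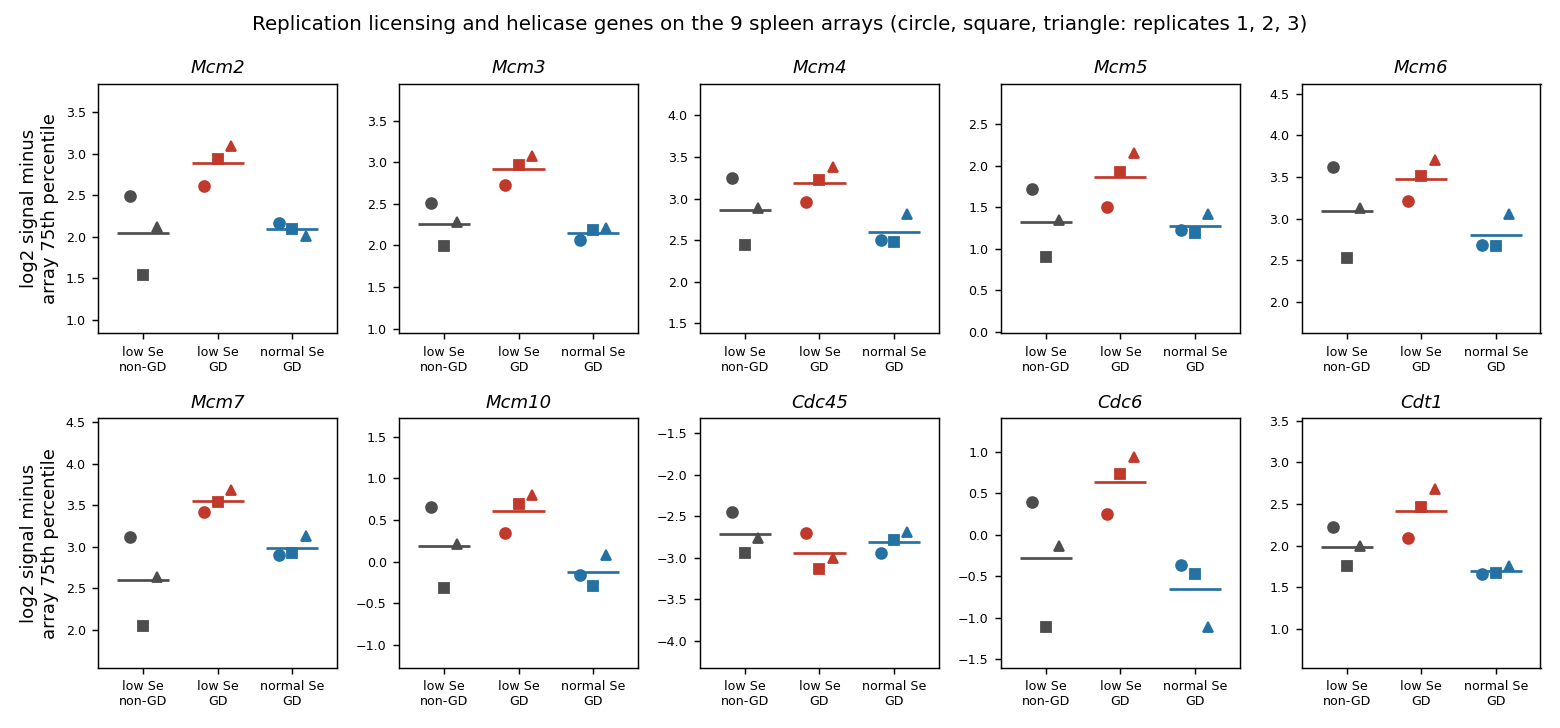
Log2 signal minus the 75th percentile of the array for each of the 10 genes on the 9 arrays, by group, with circle, square and triangle for replicates 1, 2 and 3; all panels span the same height. Low Se GD replicate 3 is the highest point in 9 of 10 panels, and Cdc45 is the exception.

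Low Se GD compared with low Se non-GD asks what differs with the disease at low selenium. In low Se GD 3 of the 10 genes rose, all of them subunits of the helicase ring: Mcm7 (1.92-fold), Mcm2 (1.78-fold) and Mcm3 (1.58-fold). No member fell. Of all 26325 genes tested, 12.8% rose and 12.2% fell, so 3 of 10 stands against a background of 12.8%. The median difference of the members was 0.48, against 0.08 over all genes.

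Mcm7 is a subunit of the catalytic core of the ring. Its values were 3.12, 2.05 and 2.64 on low Se non-GD replicates 1, 2 and 3, against 3.42, 3.54 and 3.68 on the low Se GD arrays. The groups did not overlap, and the low Se GD arrays lay closer together. The difference was 0.94 (SE 0.25, adjusted p = 0.0271, limma).

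Mcm2, a regulatory subunit that closes the ring with Mcm5 and also binds histones, gave 2.49, 1.54 and 2.12 in low Se non-GD and 2.61, 2.93 and 3.09 in low Se GD. Its groups did not overlap, but the highest low Se non-GD array and the lowest low Se GD array lay close to each other. The difference was 0.83 (SE 0.24, adjusted p = 0.0369). Mcm3, the partner of Mcm5 on the other side, gave 2.51, 1.99 and 2.28 against 2.72, 2.96 and 3.08. Here too every low Se GD array lay above every low Se non-GD array, with a difference of 0.66 (SE 0.16, adjusted p = 0.0186). No overlap in the higher direction was seen for these 3 of 10 members and for 29.5% of all genes.

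The other members of the ring did not pass the test. Mcm4, a core subunit, had 3.25, 2.44 and 2.89 in low Se non-GD and 2.96, 3.22 and 3.38 in low Se GD, a difference of 0.33 with a 95% interval from -0.18 to 0.83 (adjusted p = 0.314). Mcm6, another core subunit, had 3.62, 2.52 and 3.13 against 3.21, 3.51 and 3.71, a difference of 0.39 with an interval from -0.25 to 1.03 (adjusted p = 0.351). In both genes low Se non-GD replicate 1 reached into the range of low Se GD. Mcm5 had 1.72, 0.91 and 1.35 against 1.505, 1.92 and 2.15, a difference of 0.54 (interval -0.0050 to 1.08, adjusted p = 0.136), again with overlap through low Se non-GD replicate 1.

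The loading factors had positive differences without passing. Cdt1, which brings the ring to the origin and is held back by geminin, had 2.22, 1.75 and 1.99 in low Se non-GD and 2.09, 2.47 and 2.68 in low Se GD (difference 0.43, adjusted p = 0.118). Cdc6, the ATPase that works beside it, had 0.39, -1.11 and -0.13 against 0.25, 0.73 and 0.93 on its brighter probe (difference 0.92, SE 0.39, adjusted p = 0.129). Cdc6 had the widest spread of the members in low Se non-GD, with an SD of 0.76 (n = 3).

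The second Cdc6 probe gave -1.04, -2.48 and -1.67 in low Se non-GD and -1.31, -0.81 and -0.65 in low Se GD, the same order of arrays as the first. In the fit of single probes, 3 of 11 member probes rose and none fell, against 13.3% and 11.7% of 31868 probes. They were the probes of Mcm2, Mcm3 and Mcm7, and neither Cdc6 probe passed.

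The start factors also did not pass. Mcm10 had 0.66, -0.32 and 0.21 in low Se non-GD and 0.34, 0.69 and 0.80 in low Se GD (difference 0.42, adjusted p = 0.261). Cdc45, a part of the active helicase, had -2.44, -2.94 and -2.76 against -2.71, -3.13 and -2.998. It was the only member with a difference below 0, of -0.23 (interval -0.62 to 0.15, adjusted p = 0.353), and its groups overlapped. Its probe was the dimmest of all member probes. Before scaling, its signals were 86.8, 70.5 and 81.0 in low Se non-GD and 81.9, 116 and 115 in low Se GD. The 75th percentiles of these arrays were 472, 542 and 548, then 535, 1022 and 919. The part of the low signal in the sign of Cdc45 was not tested.

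The 3 calls were lost in some fits with fewer arrays. The share of all genes that rose is not given here for the fits without 1 array, so those losses may not be particular to the members. Without low Se non-GD replicate 3, low Se GD replicate 2 or low Se GD replicate 3, 0 of 10 members passed, and without low Se non-GD replicate 2 only Mcm7 did. Without low Se GD replicate 1, Mcm7 no longer passed (adjusted p = 0.0506) and Cdt1 did (adjusted p = 0.0392), and Mcm2 was also lost without normal Se GD replicate 1 or 2 (adjusted p = 0.0580 and 0.0568), which enter only through the shared spread. Without both in-between arrays 0 passed: the adjusted p-values of Mcm2, Mcm3 and Mcm7 were 0.232, 0.190 and 0.196 with differences of 0.84, 0.65 and 0.96, and 0.247% of all genes rose. With the scan as a block 0 of 10 passed (differences of 0.57, 0.46 and 0.82 in the same order, adjusted p from 0.148 to 0.269, with 15% of all genes rising), and this difference is by construction that of low Se GD replicate 1 from the low Se non-GD mean, as in a fit of scan 1 alone, where 1.57% of all genes rose. Scan 1 held 1 array of low Se GD, so neither fit shows how that group varies within a scan.

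**Figure D2:**
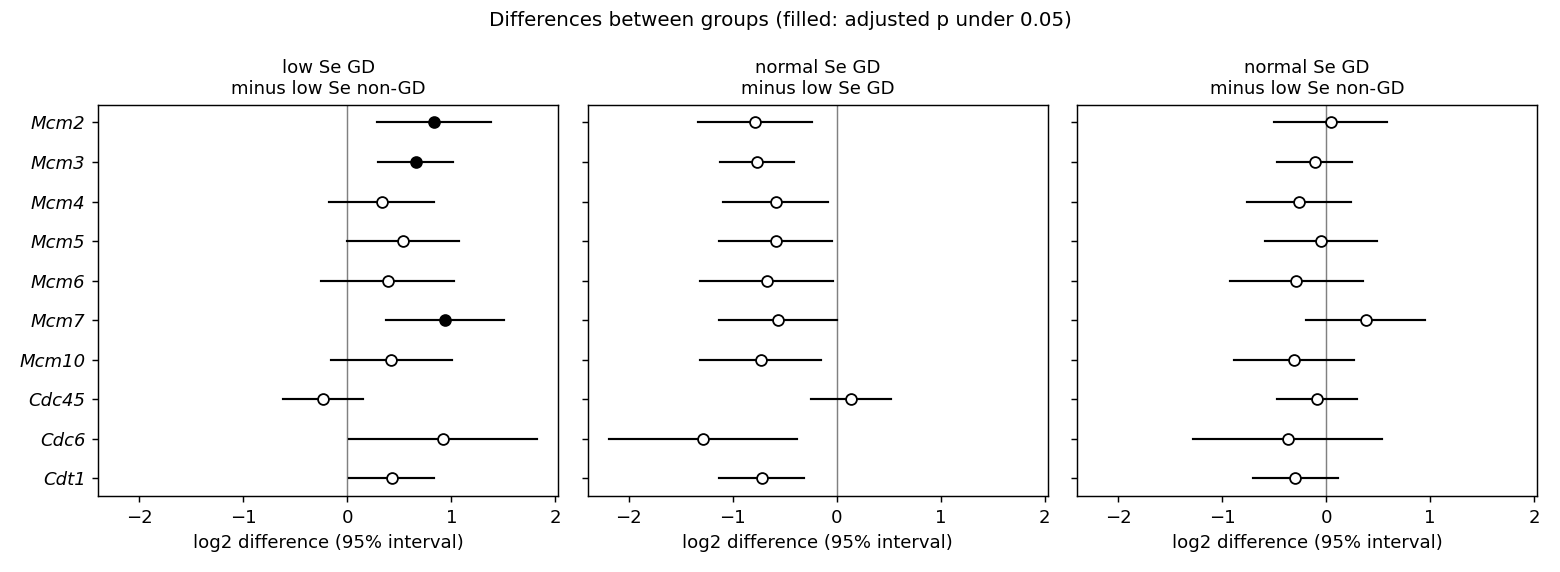
Log2 difference of the 10 genes in the 3 comparisons, with 95% intervals from the fit of all 9 arrays; filled points have an adjusted p under 0.05. Mcm2, Mcm3 and Mcm7 are filled in the first panel and no point is filled in the other 2.

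Normal Se GD against low Se GD asks what differs with selenium supply in diseased mice. None of the 10 genes passed the test after adjustment. Over all genes, 0.976% rose and 0.292% fell. As many as 8 of 10 members had an unadjusted p under 0.05 in the lower direction, against 6.71% of all genes, and in 9 of 10 every normal Se GD array lay below every low Se GD array, against 11.4% of all genes. The exceptions were Mcm7 (unadjusted p = 0.0518) and Cdc45 for the first count and Cdc45 for the second. The members other than Cdc45 moved together over the arrays (median correlation 0.90), so these are not counts of independent genes. The median difference of the members was -0.70, against 0.00 over all genes. This comparison and the first share the low Se GD arrays, so a high or low low Se GD array enters both.

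Cdt1 and Mcm3 had the smallest adjusted p-values. Cdt1 was at 1.65, 1.67 and 1.75 on normal Se GD replicates 1, 2 and 3, below the lowest low Se GD array at 2.09 (difference -0.72, SE 0.18, adjusted p = 0.0829). Mcm3 was at 2.06, 2.19 and 2.21, below the lowest low Se GD array at 2.72 (difference -0.77, SE 0.16, adjusted p = 0.0629). In both genes the 3 normal Se GD arrays lay close together, with SDs of 0.05 and 0.08 (n = 3).

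Cdc6 had the largest difference of the members, -1.29 (SE 0.39, adjusted p = 0.130). Its brighter probe was at -0.37, -0.48 and -1.12 on the normal Se GD arrays and its second probe at -2.22, -2.24 and -2.32. Both probes lay wholly below their low Se GD values, and the first was lowest on normal Se GD replicate 3.

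In the ring, Mcm2 was at 2.17, 2.10 and 2.01 in normal Se GD (difference -0.79, adjusted p = 0.127), Mcm6 at 2.68, 2.67 and 3.06 (difference -0.67, adjusted p = 0.236) and Mcm4 at 2.504, 2.48 and 2.81 (difference -0.59, adjusted p = 0.194). All 3 lay below their low Se GD values on every array, Mcm4 and Mcm6 with replicate 3 nearest to them. Mcm5 was at 1.22, 1.18 and 1.41 (difference -0.59, adjusted p = 0.223), and Mcm7 at 2.90, 2.93 and 3.13 (difference -0.56, adjusted p = 0.261). Neither overlapped with low Se GD.

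Mcm10 was at -0.16, -0.30 and 0.08 (difference -0.73, adjusted p = 0.167), again with no overlap. Cdc45 was at -2.94, -2.79 and -2.69, within and above the low Se GD range, with a difference of 0.14 (interval -0.24 to 0.53, adjusted p = 0.681).

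Among the 4 arrays scanned together in scan 2, 2 of each group, the difference was larger than in the whole set for 8 of these 9 genes, Cdc6 being the exception, and 9 of 10 members fell, from -0.70 (Mcm7) to -1.25 (Cdc6), with adjusted p-values from 0.0357 to 0.0387 in a limma fit of these 4 arrays, where 4.81% of all genes fell. Normal Se GD replicate 3, the array with the fewest probes above background, and low Se GD replicate 1 are not in that fit, and 2 arrays a group give it 2 residual degrees of freedom. Low Se GD replicate 1 was the lowest of its group for 9 of 10 members, and normal Se GD replicate 3 the highest of its group for 8 of 10. Leaving these arrays out by itself widens the difference for most members. With the scan as a block in the fit of all 9 arrays, 2 of 10 members fell, Cdt1 (difference -0.91, adjusted p = 0.0422) and Mcm3 (-0.89, adjusted p = 0.0464), against 1.79% of all genes. Only scan 2 held arrays of both groups, so these differences are by construction those of scan 2. Only the spread in that fit draws on further arrays. Cdt1 and Mcm3 also fell when genes had to be above background on all 9 arrays (adjusted p = 0.0431 and 0.0289, against 1.91% of genes). Over 23 alternative limma fits each of these 2 genes passed in 5, with adjusted p-values up to 0.512. Neither passed without both in-between arrays. With 1 array left out at a time neither passed, with adjusted p-values up to 0.274 for Cdt1 and 0.239 for Mcm3.

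**Figure D3:**
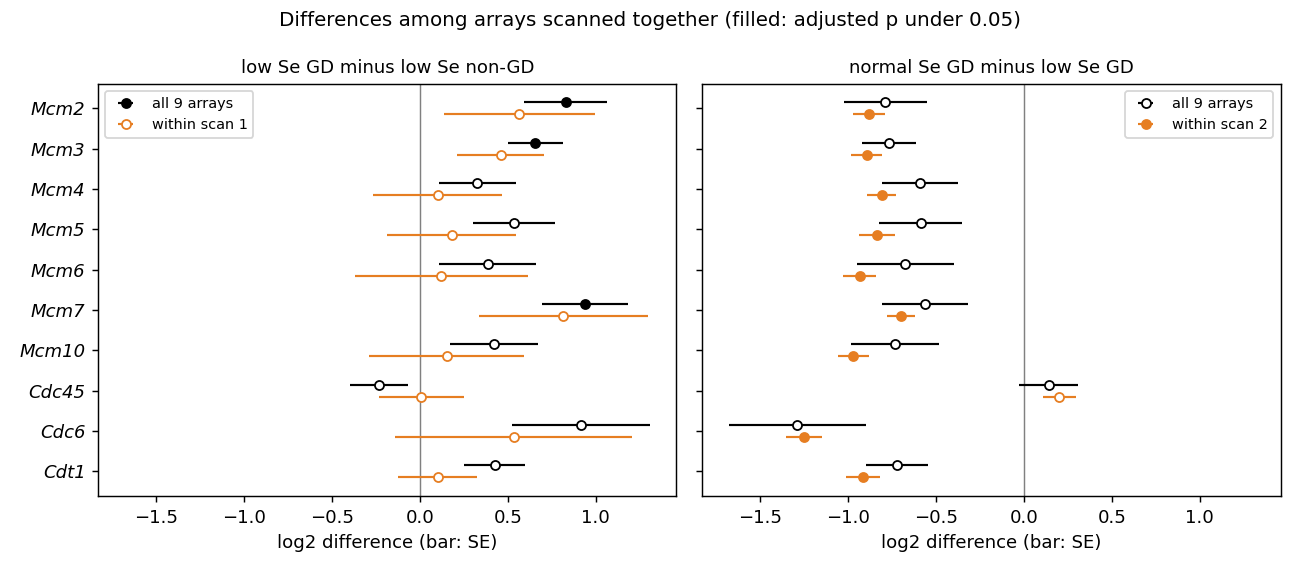
Log2 difference of the 10 genes with its SE from the fit of all 9 arrays and from arrays of 1 scan only, for low Se GD compared with low Se non-GD (scan 1) and normal Se GD against low Se GD (scan 2); filled points have an adjusted p under 0.05. In scan 2, 9 of 10 genes are filled, from -0.70 to -1.25, and in scan 1, with 1 low Se GD array, none is.

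Normal Se GD against low Se non-GD differs in both disease and selenium supply. None of the 10 members passed the test, where 18.9% of all genes rose and 13.4% fell, and 0 had an unadjusted p under 0.05, against 25.1% of all genes in the higher and 17.8% in the lower direction. The differences ran from -0.37 (Cdc6, interval -1.28 to 0.54) to 0.38 (Mcm7, interval -0.19 to 0.95), with a median of -0.18 against 0.06 over all genes. Mcm3 had the narrowest interval of the 10, from -0.47 to 0.25.

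Cdt1 was the only member whose groups did not overlap, with all normal Se GD arrays at or below 1.75 and low Se non-GD replicate 2 just above them (difference -0.30, adjusted p = 0.239). Non-overlap in the lower direction held for 21.1% of all genes. Mcm2 (0.04), Mcm5 (-0.05), Cdc45 (-0.09) and Mcm3 (-0.11) had the differences nearest to 0. For every member but Cdt1 the low Se non-GD arrays lay on both sides of the normal Se GD mean. Mcm2 and Cdc45 changed sign with the scan as a block, to -0.31 and 0.21. No scan held both groups, so scan and group cannot be told apart within a scan.

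Within an array the balance of the ring subunits could be read without any scaling, since a scaling constant cancels. Each of Mcm2 to Mcm7 was set against the mean of the other 5 on its array, and only changes of this position between arrays are described, with no test, because they were chosen after their values were seen. Mcm7 stood at 0.40, 0.17 and 0.29 in low Se non-GD, at 0.82, 0.63 and 0.60 in low Se GD and at 0.77, 0.81 and 0.83 in normal Se GD. Both diseased groups lay wholly above low Se non-GD.

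Mcm4 and Mcm6, which share the catalytic core with Mcm7, went the other way. Mcm4 stood at 0.56, 0.64 and 0.58 in low Se non-GD, 0.27, 0.25 and 0.24 in low Se GD and 0.30, 0.27 and 0.45 in normal Se GD. Mcm6 stood at 1.004, 0.74 and 0.87, then 0.57, 0.59 and 0.63, then 0.51, 0.49 and 0.74, where normal Se GD replicate 3 and low Se non-GD replicate 2 met. The difference of Mcm6 minus Mcm7 was 0.50, 0.47 and 0.48 in low Se non-GD, although both genes varied by over 1 unit among those arrays. It was -0.21, -0.03 and 0.03 in low Se GD and -0.22, -0.26 and -0.07 in normal Se GD. These ratios show that the probes changed unequally, not which of them changed.

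**Figure D4:**
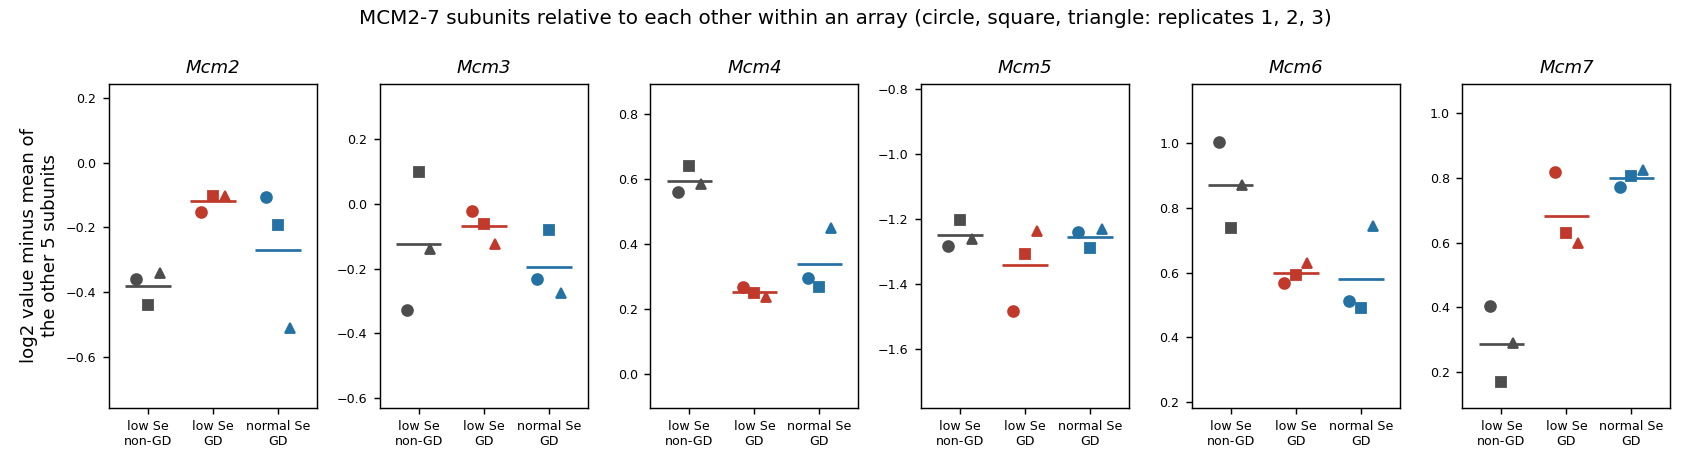
Log2 value of each of Mcm2 to Mcm7 minus the mean of the other 5 on the same array, by group, with circle, square and triangle for replicates 1, 2 and 3. Mcm7 lies higher on all 6 arrays of diseased mice (0.60 to 0.83) than on the 3 low Se non-GD arrays (0.17 to 0.40), and Mcm4 lies lower.

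Other genes of DNA replication were taken from 6 lists with 87 genes, all of them tested. In low Se GD compared with low Se non-GD, 15 of 87 rose and 3 fell, where 12.8% and 12.2% of all genes did, with a median of 0.29. In normal Se GD against low Se GD none rose and 1 fell, against 0.976% and 0.292% of all genes, with a median of -0.35 and 31 of 87 at an unadjusted p under 0.05 in the lower direction, against 6.71%. In normal Se GD against low Se non-GD 9 rose and 9 fell, against 18.9% and 13.4% of all genes, with a median of -0.11. The medians over all genes were 0.08, 0.00 and 0.06.

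The origin recognition complex is the platform on which the ring is loaded. Of its 6 subunits, 0 passed in the first 2 comparisons and 1 rose in normal Se GD against low Se non-GD, Orc4 (0.37, adjusted p = 0.0413). The other Orc4 probe, at 0.54, did not pass. Orc1, the ATPase subunit, had differences of 0.80, -0.70 and 0.10 in the 3 comparisons in this order, and Orc6 had 0.38, -0.46 and -0.08. None of these passed.

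Among 7 genes that control loading, 2 rose and 1 fell in low Se GD compared with low Se non-GD, and likewise 2 and 1 in normal Se GD against low Se non-GD. Kat7, the histone acetyltransferase that binds Cdt1 at origins, was at 1.26, 1.17 and 1.30 in low Se non-GD, 2.04, 2.16 and 2.17 in low Se GD and 1.87, 1.97 and 2.11 in normal Se GD. It rose in both diseased groups (0.88, adjusted p = 0.00153, and 0.74, adjusted p = 0.00178). Mcm8 rose in low Se GD (1.03, adjusted p = 0.00674), though its other probe did not pass (0.31), and its partner in DNA repair, Mcm9, fell in both (-1.21, adjusted p = 0.00586, and -0.78, adjusted p = 0.0242). Hat1 rose in normal Se GD (0.66, adjusted p = 0.0438), with another probe at -0.40 that did not pass. Gmnn, the Cdt1 inhibitor geminin, passed in no comparison (0.39, -0.98 and -0.59), with an adjusted p of 0.0897 in the second.

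Of 12 genes that activate the ring, 0 rose in any comparison, 1 fell in low Se GD, 3 in normal Se GD, each against low Se non-GD. Cdc7, the kinase that phosphorylates the ring, was at 0.42, 1.87 and 1.14 in low Se non-GD, -1.83, -2.31 and -2.92 in low Se GD and -1.76, -2.50 and -4.10 in normal Se GD. It fell in both (-3.50, adjusted p = 0.00654, and -3.93, adjusted p = 0.00309), its other probe fell too (-2.25 and -2.29), and in normal Se GD 2 of 3 arrays were well above background. An Agilent control spot for spiked-in RNA, E1A_a107, was at 4.72, 5.85 and 5.35 in low Se non-GD, 2.51, 1.70 and 1.01 in low Se GD and 2.37, 1.43 and 0.85 in normal Se GD. The order of the arrays within each group was the same as for Cdc7, and the part of this in the fall of Cdc7 was not tested. The mean of the 10 members stood in the reverse order to this spot within low Se non-GD (1.75, 0.88 and 1.37) and within low Se GD (1.64, 1.88 and 2.05), and between these groups the spot was lower where the members' mean was higher. In normal Se GD the spot was about as low as in low Se GD, but the members' mean was lower there, at 1.17, 1.17 and 1.27. The part of the spot in the members' differences was not tested either. The partner of the kinase, Dbf4 (0.19, -0.34 and -0.15), and the GINS genes Gins1 (0.50, -0.69 and -0.19) and Gins2 (0.50, -0.14 and 0.36) did not pass. Recql4 (-1.10, adjusted p = 0.00488) and Ticrr (-0.80, adjusted p = 0.0494) fell in normal Se GD against low Se non-GD. The other Recql4 probe, at -0.60, did not pass.

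Among 28 genes of the polymerases and the fork, 1 rose and 1 fell in low Se GD compared with low Se non-GD and 4 fell in normal Se GD against it. Rpa2, a subunit of the single-strand binding protein, fell in both (-2.69, adjusted p = 0.00383, and -3.16, adjusted p = 0.00163), and its values of 3.62, 4.83 and 4.24, then 1.84, 1.58 and 1.202, then 1.68, 1.24 and 0.29 again followed the order of the control spot within each group. Prim2, a primase subunit, fell in normal Se GD (-2.94, adjusted p = 0.0113), where replicate 3 was at -2.99 and the other arrays at -0.29 and -0.63. Pold1, the catalytic subunit of polymerase delta, rose in low Se GD (0.40, adjusted p = 0.0118). Chaf1b (-0.75) and Pole (-0.57, its other probe at -3.32) fell in normal Se GD against low Se non-GD. The other Chaf1b probe, at -0.53, did not pass. Pcna, the sliding clamp, passed in no comparison (0.54, -0.69 and -0.15).

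Of 9 genes of deoxynucleotide supply, 2 rose in low Se GD compared with low Se non-GD, Dck (1.55, adjusted p = 0.0333) and Dut (1.002, adjusted p = 0.00871), which salvages deoxynucleosides and removes dUTP respectively. None passed in the other comparisons, where the medians were -0.81 and -0.03.

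The 25 regulators of the G1 to S transition held the most calls: 10 rose in low Se GD and 6 rose and 1 fell in normal Se GD, each against low Se non-GD. The 10 in low Se GD include drivers of the cycle (Cdk2 0.82, Cdk6, Ccnd3 0.87, E2f2 0.88 and Myc 0.49) and brakes (Rb1, Rbl1, Cdkn1a 0.58, Cdkn1b 0.73 and Cdkn2c), those beyond the largest 4 being named after their values were seen. Rb1, the retinoblastoma protein that holds E2F factors back, rose in both (1.14, adjusted p = 0.00447, and 0.83, adjusted p = 0.0109), and the kinase inhibitor Cdkn2c rose in low Se GD (1.09, adjusted p = 0.00911). Rbl1, a relative of Rb1, rose in low Se GD (0.90) on its brighter probe while another probe fell (-0.37), so its direction is uncertain. Cdk2, a kinase that drives the transition, also rose in both (0.82, adjusted p = 0.0223, and 1.19, adjusted p = 0.00388), and the cyclin gene Ccnd1 rose in normal Se GD (0.99, adjusted p = 0.0136).

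Cdkn1b, the kinase inhibitor p27, was the 1 gene of all 87 that passed in normal Se GD against low Se GD. Its values were 2.96, 2.92 and 3.02 in low Se non-GD, 3.79, 3.68 and 3.61 in low Se GD and 3.05, 3.13 and 2.83 in normal Se GD, where it fell by 0.69 (adjusted p = 0.0435). E2f1 (0.09, -0.60 and -0.51) and Ccne1 (0.69, -1.14 and -0.45) passed in no comparison. Cdk6 passed in both comparisons with low Se non-GD, but was well above background on no array of that group, and the bound that this allows gives no fold.

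Markers of dividing and of erythroid cells were set beside the members on each array. The mean log2 value of the 10 members was 1.75, 0.88 and 1.37 in low Se non-GD, 1.64, 1.88 and 2.05 in low Se GD and 1.17, 1.17 and 1.27 in normal Se GD. The mean of 21 genes of mitosis and proliferation was 1.08, -0.32 and 0.53, then 0.65, 1.09 and 1.36, then 0.23, 0.27 and 0.34. The mean of 17 erythroid markers, of 18 listed, was 3.03, 1.38 and 2.43, then 2.61, 2.99 and 3.24, then 1.89, 1.88 and 2.08. Within each low selenium group all 3 means put the arrays in the same order.

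All 17 erythroid markers were well above background on all 9 arrays, and none passed in any comparison, with 3, 0 and 0 higher and 0, 10 and 1 lower at an unadjusted p under 0.05. The 10 of 17 stand against 6.71% of all genes. Their medians were 0.78, -1.11 and -0.39. Their summed signal, as log2, ran from 7.05 to 8.28 in low Se non-GD, 7.99 to 8.49 in low Se GD and 7.27 to 7.51 in normal Se GD. Klf1, the master factor of red cell genes, was at 3.62, 1.59 and 2.88, then 3.15, 3.66 and 3.99, then 2.18, 2.15 and 2.44. In normal Se GD 15 of 17 markers lay wholly below low Se GD, against 11.4% of all genes. The part of erythroid cells in the members' differences was not tested.

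**Figure D5:**
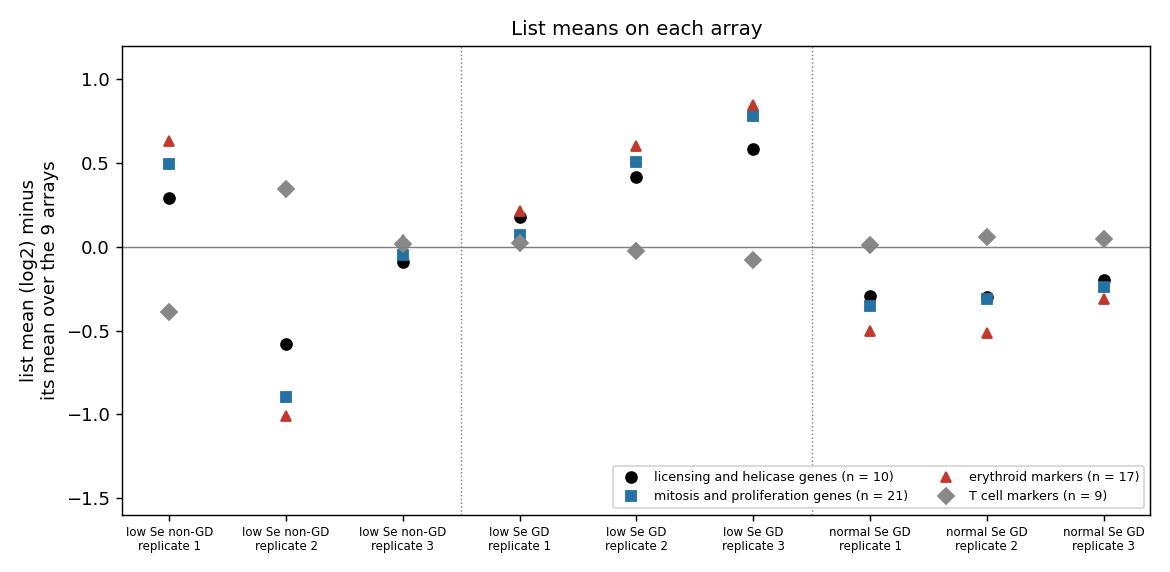
Mean log2 value of each list on each of the 9 arrays minus its mean over the arrays, for the 10 members and for lists of proliferation and cell type markers; each point is 1 array. Members, proliferation genes and erythroid markers are all lowest on low Se non-GD replicate 2 and highest on low Se GD replicate 3.

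Of the 21 mitosis genes, 0 passed in the first 2 comparisons (medians 0.65 and -0.75), and 2 fell in normal Se GD against low Se non-GD, Foxm1 (-0.92, with another probe that rose by 1.02) and Cenpe (-0.85). Mki67, the standard marker of cycling cells, did not pass (0.32, -0.93 and -0.61). T cell markers ran the other way in low Se non-GD, with means of 1.40, 2.13 and 1.81, and none of 9 passed in any comparison. Macrophage markers rose in both diseased groups against low Se non-GD, 6 and 8 of 9, and 1 of 9 in normal Se GD against low Se GD. As for fat, 4 of 5 markers rose in low Se GD compared with low Se non-GD and 1 fell in normal Se GD against low Se GD. Their means were -1.97, -5.26 and -2.71, then 1.28, 0.39 and -1.38, then -4.18, -4.29 and -4.51. Within low Se non-GD the arrays stood in the same order as for the members, and within low Se GD in the reverse order. Like the members, the fat markers had their highest group mean in low Se GD. The part of these cells in the members' differences was not tested.

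The genes most like the members were sought among 18531 others well above background on all arrays, by Pearson correlation over the 9 arrays with the mean of the members' centred values. The 8 highest were Pask (0.996), Abcg4 (0.996), Snrpe (0.994), Fam241a (0.994), Sppl2b (0.993), Ccdc18 (0.993), Ncapg2 (0.992) and Exo1 (0.992). Abcg4 was at 1.17, -0.37 and 0.61 in low Se non-GD, 0.93, 1.39 and 1.58 in low Se GD and 0.07, 0.18 and 0.31 in normal Se GD. None of the 8 passed in low Se GD compared with low Se non-GD or in normal Se GD against low Se GD. They were picked for this likeness, and nothing follows from it about function.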

How the data were processed

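Total RNA of spleen was hybridised to Agilent whole-genome mouse arrays by a 1-colour protocol, per the labels' protocols. The deposited scanner files hold an intensity for each spot on a linear scale, which Agilent Feature Extraction (version 11.0.1.1) had background-subtracted and spatially detrended, per the file headers. The authors' deposited series table of log2 values served as an alternative only, since the sources used here do not give its making.

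Signals were taken as log2, and the 75th percentile over 43020 non-control spots of the array was subtracted. Outlier-marked spots were dropped, repeat spots of a probe averaged, and the probe with the highest mean stood for a gene. Accessions were matched to RefSeq annotation of GRCm38.p6, which named 27234 of 39429 probes. Genes well above background on fewer than 3 of 9 arrays were left out (6078 of 32451), as were 48 that lacked a value. All 9 arrays were fitted with limma 3.58.1 in R 4.3.3 (lmFit, eBayes, 2-sided, 6 residual and 1.81 prior degrees of freedom), with Benjamini-Hochberg adjustment of the p-values over 26325 genes and a threshold of 0.05. The single-probe fit was adjusted over its own probes. The procedure was tested on simulated data. The number of arrays limits the precision. A probe above background on no array of a group is given only as a bound.

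Members and lists were chosen with earlier results of these data known. From each list, up to 4 genes past the threshold were named per comparison, by size, plus Gmnn, Orc1, Orc6, Gins1, Gins2, Dbf4, Cdc7, Pcna, Mki67, E2f1 and Ccne1 whatever their values. Klf1 and the fat, macrophage and T cell lists were described after their values were seen. The lists for B cells, germinal centre B cells, plasma cells, natural killer cells, neutrophil precursors, megakaryocytes, progenitors, stroma and pancreas were also computed. Alternatives changed background correction, scaling, filters, probes, blocks, weights and arrays. The normexp alternative used median spot signals, as the files read here have no mean signal column.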

Additional observations from a re-analysis of the deposited data

How the results depend on the processing

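Of the 10 members, 3 passed in low Se GD compared with low Se non-GD (the first comparison), 0 in normal Se GD against low Se GD (the second) and 0 in normal Se GD against low Se non-GD (the third). Normexp background, quantile and median scaling, the authors' table and the mean over probes gave 3, 0 and 0 as well, although the median difference of all genes in the first comparison moved from 0.08 to -0.16 with normexp and 0.18 with median scaling. The count for the first comparison was 0 with the scan as a fixed or as a random block, within scan 1 and without both in-between arrays. Above background on all 9 arrays, and with the scan as a fixed or a random block, the count for the second was 2, and within scan 2 it was 9. Array weights gave 10 (9 higher, and Cdc45 lower), 9 and 4, the 9 and the 4 all being lower. Weights estimated by REML did not converge, so a gene-by-gene method was chosen after that was seen. It called 11611 of all 26325 genes higher and 8329 lower in the first comparison. Where no share of all genes was given above for an alternative, none is given here. Such counts may therefore not be particular to the members. Leaving out 1 array at a time gave 0 to 3 in the first, 0 to 0 in the second and 0 to 0 in the third. No filter on dim probes gave 2 in the first, without Mcm2 (adjusted p = 0.0528). The samples were not treated as pairs by replicate number. Deviations of same-numbered arrays correlated at -0.36 to 0.24. The fit with the replicate number as a block gave counts of 2, 0 and 0, so Mcm2 (adjusted p = 0.0703) was the call lost. The replicate numbers of low Se non-GD are in doubt, as given below, so these values cannot exclude a pairing.

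Signs turned for differences that did not pass. In the third comparison, Mcm2 (0.04) went to -0.31 with the scan as a fixed block and -0.22 as a random block, and Cdc45 (-0.09) to 0.21 and 0.14. Leaving out 1 array at a time gave -0.21 to 0.26 for Mcm2, -0.24 to 0.017 for Mcm3, -0.26 to 0.15 for Mcm5 and -0.21 to 0.046 for Cdc45, where the array left out at either end was low Se non-GD replicate 1 or 2. Cdc45 in the first comparison went to 0.0092 with the scan as a fixed block, and to 0.0092 within scan 1. Both are by construction the same difference, that of low Se GD replicate 1 from the low Se non-GD mean. The cause of the other sign changes was not tested. Each of the 3 columns for low Se non-GD in the authors' table came closest to an array of that group other than the one it is named for (rank correlations of 0.997 to 0.998, and 0.980 to 0.987 with its namesake), which leaves the group intact and its replicate numbers in doubt.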

Other observations

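Other lists were measured on the same arrays and belong to no result above. Over all genes tested, 12.8% rose and 12.2% fell in low Se GD compared with low Se non-GD, and 18.9% rose and 13.4% fell in normal Se GD compared with it. B cell markers fell in 4 of 10 genes in low Se GD compared with low Se non-GD, led by Fcer2a (-0.96, adjusted p = 0.00171, limma), the low-affinity IgE receptor, which rose in normal Se GD against low Se GD (0.94, adjusted p = 0.0369). Blk, a B cell kinase, also rose there (0.64, adjusted p = 0.0438), and in normal Se GD against low Se non-GD 2 of 10 B cell markers rose and 2 fell. Plasma cell markers rose in 4 of 8 and 5 of 8 genes in low Se GD and normal Se GD against low Se non-GD, among them Xbp1 (0.74 and 1.11), the factor that expands the secretory apparatus. Natural killer markers rose in 4 of 7 and 6 of 7, with Gzma, a granule protease, at 1.74 and 1.88. Of 7 germinal centre markers 1 and 2 rose, of 9 neutrophil precursor markers 2 and 5 rose and 1 and 1 fell, and of 8 megakaryocyte markers 2 and 3 rose. Of 7 progenitor markers 2 and 3 rose and 2 and 2 fell, of 5 stroma markers 1 and 2 rose and 1 and 0 fell, and of 6 pancreas markers 0 rose and 2 and 2 fell.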
